A study of Triticum aestivum with 4 samples.

Results

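SINA and U-box proteins are ubiquitin ligases, the enzymes that choose which proteins receive ubiquitin. Their transcripts were followed here in roots of bread wheat (Triticum aestivum, a hexaploid) of the genotype UAS-375. Members were the tested transcripts whose best protein hit lay in a pooid grass (Aegilops, Triticum, Hordeum or Brachypodium) and whose hit was named SINA-like, E3 ubiquitin-protein ligase SINAT or U-box domain-containing. This rule used names and no measured value. It found 208 of 91482 tested transcripts, in 113 assembled genes: 46 transcripts of 23 genes in the SINA class and 162 transcripts of 90 genes in the U-box class. Roots were sampled from 45-day-old greenhouse plants. One group grew from seeds held at 10 g for 12 h, called hypergravity here, and the other from untreated seeds, called control. The series title concerns enhanced root growth after this treatment, which is the question behind comparing the groups. Each group had 2 libraries, called a and b. The labels do not say whether these came from separate plants, so the p-values cover only the spread between 2 libraries a group, which may be technical.

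Ubiquitin is activated by an E1 enzyme, passed to an E2 conjugating enzyme and placed on a target with the help of an E3 ligase. Chains of ubiquitin often send the target to the 26S proteasome. SINA ligases are named after the sina gene of Drosophila and pair a zinc-binding RING finger with a SINA domain that binds the target. In Arabidopsis, SINAT5 ubiquitinates NAC1, a transcription factor of auxin-driven lateral root formation, and other SINAT proteins act on autophagy proteins. The U-box is a relative of the RING finger that is held together without zinc. Plants have many U-box proteins (PUBs), often with armadillo repeats or with a protein kinase domain, and several act in immunity, in abscisic acid and drought responses and in root growth. Roles named below belong to the Arabidopsis or rice protein of that name, and whether the wheat transcripts are their orthologs was not tested.

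Recovered read counts summed to between 46604327 and 53346750 per library, and the lowest count of a tested transcript was 9. Values below are normalized counts, that is, counts divided by the size factor of their library. Differences are log2 fold changes of hypergravity against control ± SE from limma on log2(normalized count + 1), a scale that understates changes of low transcripts. A transcript was called, and is said to have risen or fallen, at a Benjamini-Hochberg adjusted p under 0.05 over all 91482 transcripts. Of these, 13.5% were called higher and 11.9% lower, and the median log2 fold change was -0.01. Isoforms of 1 assembled gene and the wheat subgenomes share reads, so their values are not independent, and a shift of reads between near copies cannot be told apart from a change in level. In bulk roots, fewer cells of a type and less RNA per cell cannot be told apart either. Of the root marker patterns searched, 3 matched a tested transcript (nicotianamine synthase, SHORT-ROOT and SCARECROW, 10 transcripts in all). They summed to 2656 and 3956 normalized counts in control a and b against 1660 and 1257 in hypergravity a and b. Of the 10, 8 were called lower. Nicotianamine synthase made up 8 of the 10 and most of the sum, with 2474 and 3703 in control against 1496 and 1125 in hypergravity. SCARECROW had 79.9 and 126 against 60.5 and 57.7. SHORT-ROOT overlapped between the groups, at 102.5 and 126.8 against 103.2 and 74.1. The 6 green shoot transcripts summed to 1401 and 1476 in control and to 1883 and 1625 in hypergravity, with 2 called higher and 1 lower. Photosystem II 10 kDa made up most of that sum, with 1066 and 1083 in control against 1600 and 1386 in hypergravity. Oxygen-evolving enhancer went the other way, at 228 and 325 against 142 and 133. Chlorophyll a-b binding protein overlapped between the groups, at 107.5 and 67.6 against 141.8 and 106.1. The part of either marker group in the ligase results was not tested.

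The names were checked against the domain entry that the deposited table gives for each transcript, at most 1 per transcript. Of the 46 SINA members, 23 carried the SINA family entry and 23 carried none. Of the 162 U-box members, 29 carried the U-box entry, 22 an armadillo repeat, 24 a protein kinase and 6 the universal stress protein family, while 76 carried none. The other 5 carried an entry not typical of the class: 3 transcripts of U-box 57-like an ICP0-binding domain, U-box 45 a domain named as associated with HOX, and 1 transcript of U-box 5-like a kinesin-associated protein domain. The names of these 5, and of the 23 SINA and 76 U-box members with no entry, therefore rest on the best hit alone.

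In the SINA class, 6 of 46 transcripts rose (13% against 13.5% of all transcripts) and 8 fell (17.4% against 11.9%), while 32 were not called. The 6 that rose were 5 isoforms of 1 SINAT5-like gene and 1 SINA-like 2 transcript. The 8 that fell were spread over SINA-like 10, SINA-like 4, SINA-like 6 and SINAT5-like. In 30 of 46 transcripts (65.2% against 63.9% of all) both hypergravity libraries lay on the same side of both control libraries, 21 of them below and 9 above (of all transcripts, 32% lay below and 31.9% above). The class median log2 fold change was -0.16, with a range from -2.71 to 1.32. At least 2-fold changes were called in 2 transcripts upward and 2 downward (4.94% and 3.16% of all transcripts). Leaving out any 1 library made the count called lower smaller, as it did over all transcripts. Such a fit leaves 1 library in a group, so its spread comes from the other group alone. Its adjusted p is not comparable with that of the full fit. Here and below, a call kept or ended in such a fit is therefore a description only. Summing isoforms per gene left 1 gene of 23 called higher (14.3% of all genes were) and 6 lower (12.3% of all genes). These sums took all tested transcripts of a gene, and in 7 of the 23 genes some lay outside the member rule.

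**Figure D1:**
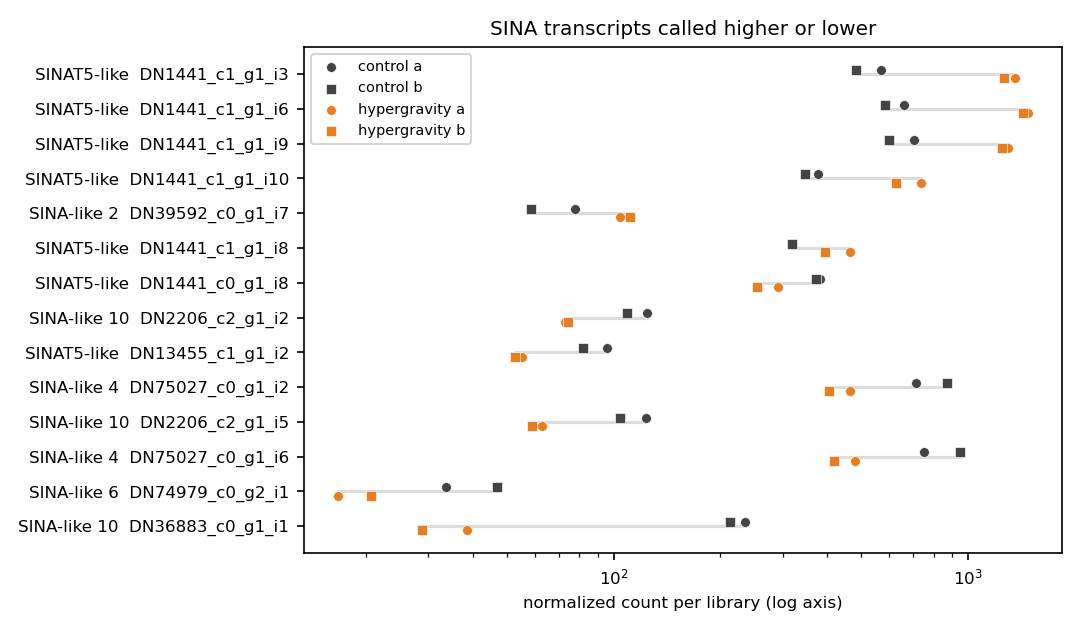
Normalized counts per library (log axis) of the 14 SINA transcripts called higher or lower, ordered by log2 fold change, with control libraries in grey, hypergravity libraries in orange, circles for library a and squares for library b. In every row the control and hypergravity libraries lie apart, and the widest gap is that of a SINA-like 10 transcript at the foot of the plot.

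The strongest rise in the class belonged to a SINAT5-like gene, TRINITY_DN1441_c1_g1. Its transcript TRINITY_DN1441_c1_g1_i3 had normalized counts of 568 and 484 in control a and b and of 1358 and 1267 in hypergravity a and b, a log2 fold change of 1.32 ± 0.11 (adjusted p = 2.65e-05). TRINITY_DN1441_c1_g1_i6 went from 660 and 582 to 1471 and 1425 (1.22 ± 0.10, adjusted p = 2.56e-05). Both hypergravity libraries stood at more than double either control library for these 2 isoforms. TRINITY_DN1441_c1_g1_i9 had 702 and 597 in control against 1296 and 1243 (0.97 ± 0.11, adjusted p = 0.000148), and TRINITY_DN1441_c1_g1_i10 had 377 and 348 against 737 and 624 (0.90 ± 0.12, adjusted p = 0.000478). TRINITY_DN1441_c1_g1_i8 changed least, from 319 in both control libraries to 464 and 393 (0.42 ± 0.13, adjusted p = 0.0345), and it was not called without control a, control b or hypergravity a, or without the mean-variance trend (adjusted p up to 0.174). Thus all 5 member isoforms of the gene rose, by unequal amounts. The same assembled gene held 3 further isoforms whose best hit was DIS1, and which the rule leaves out; in rice, DIS1 is a drought-induced SINA ligase that limits drought tolerance. These rose as well, with log2 fold changes of 1.22 to 1.41. Summed over its 8 transcripts, the gene had 4513 and 4008 normalized counts in control and 9806 and 9238 in hypergravity (1.16 ± 0.09, adjusted p = 2.6e-05). It was the only SINA gene called higher after summing.

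The other SINAT members did not share this rise. The members of TRINITY_DN1441_c0_g1, TRINITY_DN1441_c1_g3 and TRINITY_DN3230_c0_g1 had the same best-hit protein as those of the gene that rose. A shift of reads among these genes cannot be told apart from a change in level. Of 18 SINAT transcripts, 5 rose and 2 fell, and their median was -0.21 although 4 of the 5 largest positive values of the class belonged to them. The 2 that fell were SINAT5-like too. TRINITY_DN1441_c0_g1_i8 had 383 and 371 in control against 291 and 253 in hypergravity (-0.47 ± 0.13, adjusted p = 0.0221). TRINITY_DN13455_c1_g1_i2 had 95.6 and 81.7 against 55.3 and 52.5 (-0.70 ± 0.21, adjusted p = 0.0352). The libraries of the groups did not overlap for either, but both calls need nearly all 4 libraries. Leaving out control a, control b or hypergravity b ended the first call (adjusted p = 0.0794, 0.0554 and 0.117), as did a fit with no mean-variance trend (adjusted p = 0.0724), and leaving out any 1 library ended the second (adjusted p from 0.057 to 0.192). Summed over its 3 isoforms, TRINITY_DN1441_c0_g1 was called lower by limma (-0.38 ± 0.11, adjusted p = 0.0255). The SINAT2-like transcript TRINITY_DN9383_c0_g1_i7, named for its high level per length, had 1236 and 1217 in control and 1130 and 1332 in hypergravity. Its groups overlapped, with a log2 fold change of 0.00 and an adjusted p of 0.994.

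Among the 28 SINA-like members 1 rose and 6 fell, with a median of -0.04. The largest change of any member was in SINA-like 10. TRINITY_DN36883_c0_g1_i1 had 235 and 212 normalized counts in control a and b and 38.6 and 28.8 in hypergravity a and b, a log2 fold change of -2.71 ± 0.21 (adjusted p = 2.09e-05). Mean control was 6.63 times mean hypergravity, and the call held under each of the transcript-level alternatives. It was the only member transcript of its assembled gene, and it carried no domain entry. In another SINA-like 10 gene, TRINITY_DN2206_c2_g1_i5 fell from 123 and 104 to 62.6 and 58.7 (-0.89 ± 0.20, adjusted p = 0.00978) and TRINITY_DN2206_c2_g1_i2 from 124 and 109 to 73.0 and 74.1 (-0.65 ± 0.19, adjusted p = 0.0317). Leaving out control a ended the call of the former (adjusted p = 0.0546), and leaving out any 1 library that of the latter (adjusted p from 0.0577 to 0.176). The other 4 SINA-like 10 transcripts, of another gene, were not called.

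SINA-like 4 was represented by 1 gene, and both of its transcripts fell. TRINITY_DN75027_c0_g1_i6 had 752 and 952 in control against 481 and 419 in hypergravity (-0.91 ± 0.13, adjusted p = 0.000811), and TRINITY_DN75027_c0_g1_i2 had 711 and 875 against 465 and 406 (-0.86 ± 0.13, adjusted p = 0.000975). Each control library exceeded each hypergravity library, and control b was the highest of the 4. Both calls held under the same alternatives. Of 14 SINA-like 6 transcripts, 13 were not called. The exception was a low one, TRINITY_DN74979_c0_g2_i1, with 33.5 and 47.0 in control and 16.7 and 20.6 in hypergravity (-1.06 ± 0.28, adjusted p = 0.021). It was no longer called without control b (adjusted p = 0.149) or without hypergravity a (adjusted p = 0.0849). Of 5 SINA-like 2 transcripts 1 rose, TRINITY_DN39592_c0_g1_i7, from 77.9 and 58.2 to 104 and 111 (0.67 ± 0.21, adjusted p = 0.0453). It needed control b and both hypergravity libraries, since leaving any of these out gave an adjusted p of 0.293, 0.0925 and 0.166 in that order. Quantile normalization (adjusted p = 0.0504) and a fit with no mean-variance trend (adjusted p = 0.0597) ended the call as well.

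In the U-box class, 27 of 162 transcripts rose (16.7% against 13.5% of all transcripts) and 14 fell (8.64% against 11.9%), while 121 were not called. The groups did not overlap in 100 transcripts (61.7% against 63.9% of all), 58 higher and 42 lower in hypergravity. Of all transcripts, 31.9% lay higher and 32% lower without overlap. The median log2 fold change was -0.01, close to that of all transcripts, with a range from -1.58 to 1.26. Summed per gene over all of its tested transcripts, 17 of 90 genes were called higher (14.3% of all genes were) and 11 lower (12.3% of all genes). In 12 of the 90 genes the sum included transcripts outside the member rule. Among the genes called lower, TRINITY_DN24176_c0_g1 summed mostly transcripts with another best hit, described below. The count called lower depended on the libraries used. It was smaller without control b or without hypergravity b, and so was the count over all transcripts. Without control a the U-box count was larger, while that over all transcripts was not. The root marker sum above, mostly nicotianamine synthase, was highest in control b and lowest in hypergravity b. Its part in these counts was not tested. Without the mean-variance trend in limma, 13 transcripts were called higher.

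**Figure D2:**
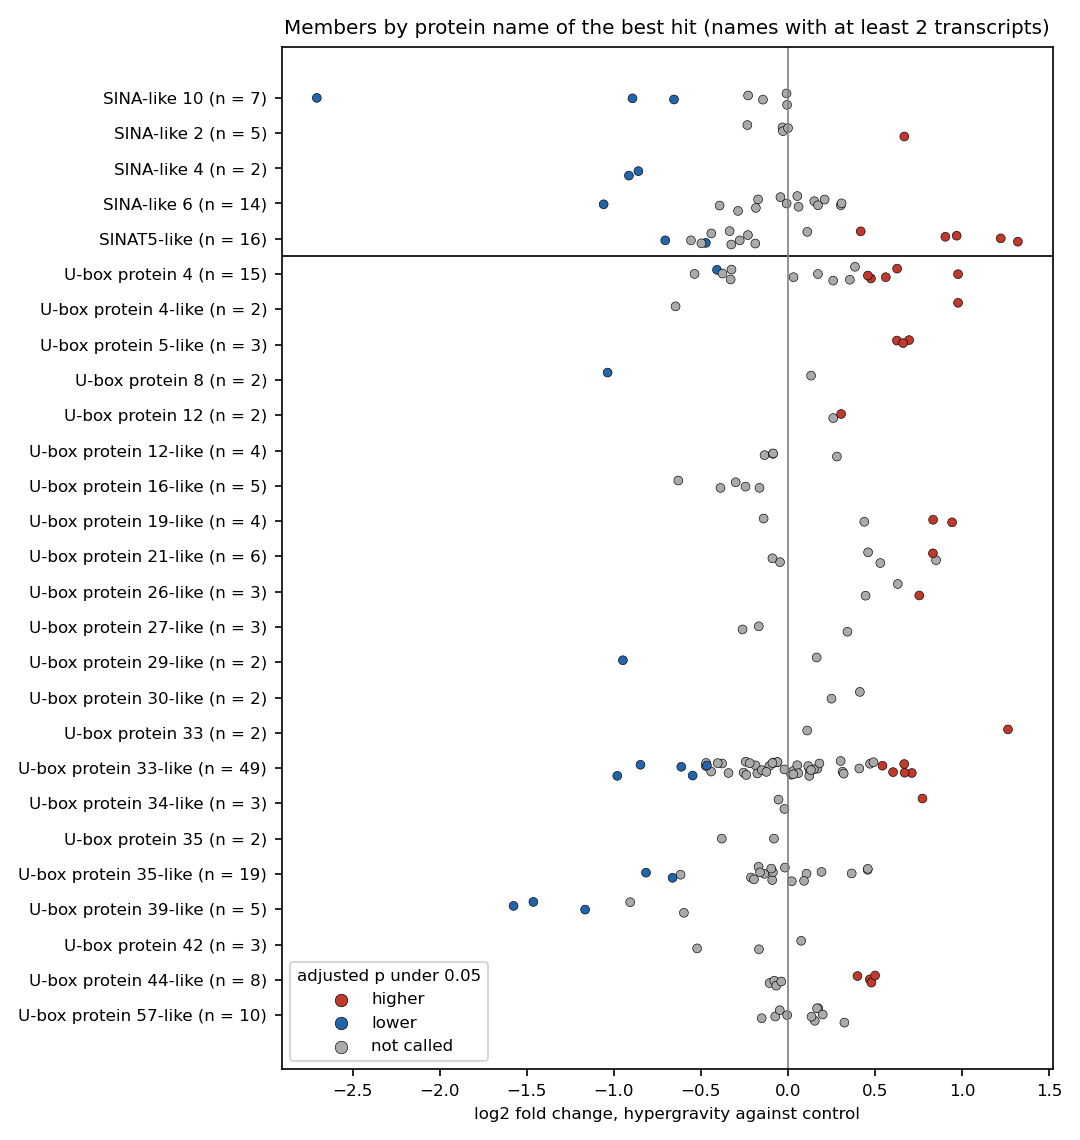
Log2 fold change of hypergravity against control for each member, by protein name of the best hit (names with at least 2 transcripts), 1 point per transcript, red called higher, blue called lower and grey not called. All 5 points of U-box 39-like lie below 0 and all 3 of U-box 5-like above 0, while the 49 of U-box 33-like lie on both sides.

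The largest U-box rise was in a transcript named U-box 33. TRINITY_DN7774_c0_g1_i1 had 67.1 and 72.3 normalized counts in control a and b and 178 and 160 in hypergravity a and b (1.26 ± 0.18, adjusted p = 0.000779). The U-box 11-like transcript TRINITY_DN20514_c0_g1_i3 went from 357 and 334 to 689 and 794 (1.10 ± 0.12, adjusted p = 0.000113). Libraries of a group lay close together in both and far from the other group. Both calls held under each transcript-level alternative. These were the 2 of 162 U-box transcripts that rose at least 2-fold, and 4 fell by that much (4.94% and 3.16% of all transcripts).

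Transcripts named after U-box 4, which in Arabidopsis takes part in CLE peptide signalling in the root meristem, were called higher in 5 of 15 cases and lower in 1. TRINITY_DN122_c1_g1_i2 was low, with 38.5 and 27.2 in control and 52.1 and 80.3 in hypergravity (0.98 ± 0.29, adjusted p = 0.032). Leaving out control b or hypergravity b ended that call (adjusted p = 0.117 and 0.213), and so did dropping the mean-variance trend (adjusted p = 0.0651). A U-box 4-like isoform of the same assembled gene, TRINITY_DN122_c1_g1_i4, went from 205 and 229 to 374 and 489 (0.98 ± 0.15, adjusted p = 0.00125) and kept its call in each alternative. In a second gene, TRINITY_DN7194_c0_g1, 3 of 4 member isoforms rose, with log2 fold changes of 0.46 to 0.63, and the fourth was at 0.39 (adjusted p = 0.0512). None of the 3 passed without hypergravity a or without the mean-variance trend, and i6 and i8 did not pass without control a (adjusted p up to 0.106 over the alternatives). Summed, that gene stood at 0.48 ± 0.11 (adjusted p = 0.0125). In TRINITY_DN5481_c0_g1 the isoforms lay the other way. Its isoform i6 fell from 414 and 416 to 308 and 318 (-0.41 ± 0.11, adjusted p = 0.0269; up to 0.124 over the alternatives, and not called without the trend or when any 1 library was left out), and isoforms i7 and i1 were at -0.38 and -0.33 without passing the test (adjusted p = 0.051 and 0.0528). The isoforms of these last 2 genes were described after their values were seen.

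U-box 19 in Arabidopsis limits abscisic acid and drought responses. Of 4 U-box 19-like transcripts, each of its own gene, 2 rose. TRINITY_DN15814_c0_g1_i2 went from 126 and 128 to 263 and 229 (0.94 ± 0.15, adjusted p = 0.00163). TRINITY_DN71552_c0_g1_i2 went from 32.5 and 27.2 to 55.3 and 52.5 (0.83 ± 0.24, adjusted p = 0.0303) but was called neither without control b (adjusted p = 0.157) nor without hypergravity a or b (adjusted p = 0.102 and 0.093). Of 6 U-box 21-like transcripts 1 rose, TRINITY_DN4686_c0_g2_i1, from 152 and 179 to 322 and 270 (0.83 ± 0.16, adjusted p = 0.00358). Of the others, 3 had log2 fold changes between 0.46 and 0.85 with adjusted p of 0.13 to 0.165, and 2 lay near 0.

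The single U-box 9 transcript also rose; in Arabidopsis PUB9 works with an S-domain receptor kinase in lateral root growth at low phosphate. TRINITY_DN11594_c0_g1_i1 had 89.7 and 101 in control against 157 and 177 in hypergravity (0.80 ± 0.18, adjusted p = 0.00837), a call that ended when hypergravity b was left out (adjusted p = 0.0602). U-box 26 in Arabidopsis marks the immune kinase BIK1. A U-box 26-like transcript, TRINITY_DN53602_c0_g1_i4, had 88.7 and 97.7 against 185 and 135 (0.75 ± 0.20, adjusted p = 0.0205), a call that ended without hypergravity a, the higher library (adjusted p = 0.133), and without the mean-variance trend (adjusted p = 0.0514). The U-box 34-like transcript TRINITY_DN3980_c0_g2_i1 had 35.5 and 37.6 against 73.0 and 54.6 (0.77 ± 0.24, adjusted p = 0.0429) and was not called without control a, control b or hypergravity a (adjusted p = 0.103, 0.0785 and 0.212). In all 3 the hypergravity libraries exceeded the control libraries.

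Smaller rises were found in transcripts with higher levels. U-box 5-like was called higher in all 3 of its transcripts, from 2 genes. TRINITY_DN11820_c0_g1_i8 had 1820 and 1760 normalized counts in control and 2685 and 3133 in hypergravity (0.70 ± 0.10, adjusted p = 0.000678). The 2 isoforms of TRINITY_DN12654_c0_g1, described after their values were seen, had log2 fold changes of 0.63 ± 0.10 and 0.66 ± 0.11. U-box 44 of Arabidopsis, also called SAUL1, holds back leaf senescence and acts in immunity. Of 8 U-box 44-like transcripts 4 rose, all isoforms of TRINITY_DN15004_c0_g1, with log2 fold changes of 0.40 to 0.50. The largest was TRINITY_DN15004_c0_g1_i5, from 528 and 461 to 652 and 749 (0.50 ± 0.12, adjusted p = 0.0119), and like the other 3 it was not called without control b (adjusted p = 0.068) or without hypergravity b (adjusted p = 0.0762). None of the 4 was called without the mean-variance trend (adjusted p = 0.0764 for i5), and i8 was not called under quantile normalization. Summed over isoforms this gene was called, at 0.47 ± 0.11 (adjusted p = 0.0104).

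**Figure D3:**
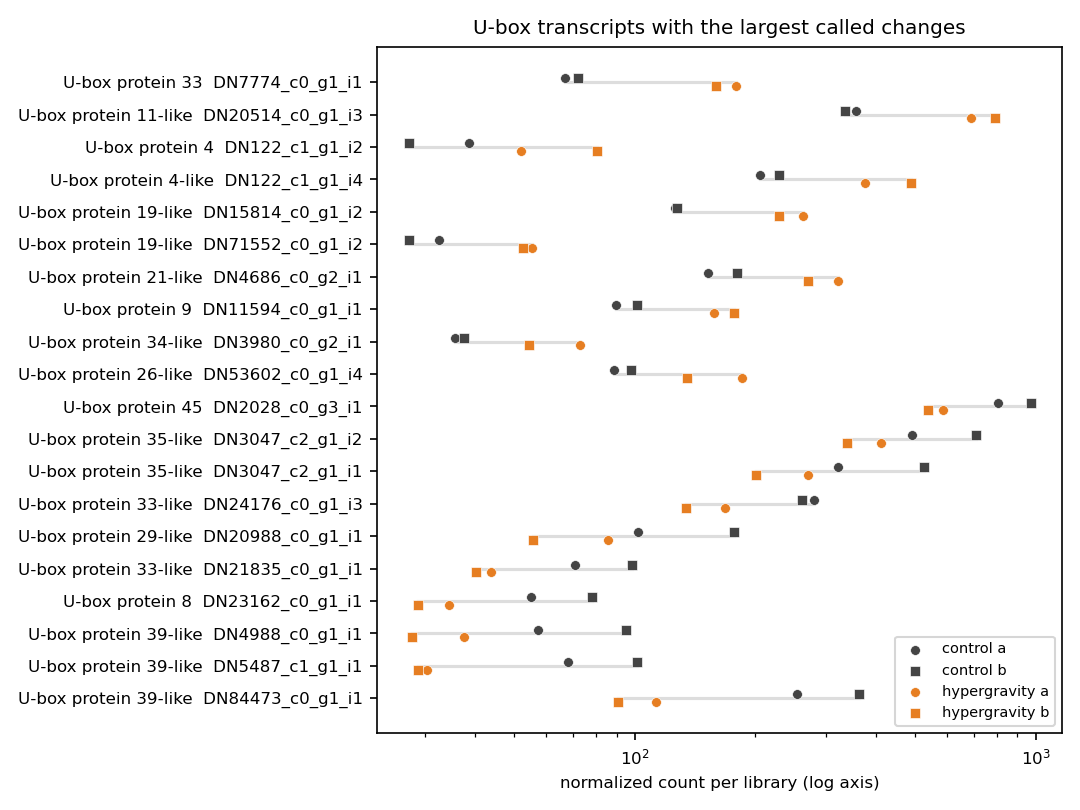
Normalized counts per library (log axis) of the 20 U-box transcripts whose called log2 fold changes were largest, 10 positive and 10 negative, with control libraries in grey, hypergravity libraries in orange, circles for library a and squares for library b. Control b exceeds control a in 9 of the 10 transcripts that fell, and hypergravity a exceeds hypergravity b in all 10 of them.

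The steepest falls in the class were in U-box 39-like. TRINITY_DN84473_c0_g1_i1 had 253 and 363 in control a and b against 113 and 90.6 in hypergravity a and b (-1.58 ± 0.20, adjusted p = 0.000358). TRINITY_DN5487_c1_g1_i1 had 68.0 and 101 against 30.2 and 28.8 (-1.46 ± 0.26, adjusted p = 0.00254). Both kept their call in each alternative, and control b was the highest library in both. TRINITY_DN4988_c0_g1_i1 had 57.2 and 94.9 against 37.5 and 27.8 (-1.16 ± 0.29, adjusted p = 0.016), and was not called without control b (adjusted p = 0.11) or without hypergravity b (adjusted p = 0.0892). The 5 transcripts of this name came from 5 assembled genes. The 2 not called had log2 fold changes of -0.91 (adjusted p = 0.0884) and -0.60 (adjusted p = 0.106).

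Among other names, U-box 8 (TRINITY_DN23162_c0_g1_i1) had 55.2 and 78.0 in control against 34.4 and 28.8 (-1.04 ± 0.26, adjusted p = 0.0159). U-box 29-like (TRINITY_DN20988_c0_g1_i1) had 102 and 177 against 85.5 and 55.6 (-0.95 ± 0.29, adjusted p = 0.0381). Leaving out control b (adjusted p = 0.121 and 0.223) or hypergravity b (adjusted p = 0.0793 and 0.205) ended both calls, and dropping the mean-variance trend ended the second (adjusted p = 0.112). U-box 35-like had 2 called of 19, both isoforms of TRINITY_DN3047_c2_g1 and both lower. Isoform i1 had 321 and 526 against 271 and 201 (-0.81 ± 0.22, adjusted p = 0.0228) and isoform i2 had 491 and 709 against 411 and 338 (-0.66 ± 0.17, adjusted p = 0.0183). For each of these 4 transcripts the spread between libraries of a group was wide, with control b well above control a. Neither isoform was called without control b (adjusted p = 0.1 and 0.11) or without hypergravity b (adjusted p = 0.134 and 0.104), nor without the mean-variance trend (adjusted p = 0.11 and 0.1). U-box 45 (TRINITY_DN2028_c0_g3_i1) fell from 805 and 973 to 587 and 539 (-0.65 ± 0.12, adjusted p = 0.00284) and was called in each alternative.

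U-box 33-like was the largest group, with 49 transcripts of 20 genes, of which 5 rose and 5 fell. Of the rises, 4 were isoforms of TRINITY_DN7163_c0_g1, at log2 fold changes of 0.54 to 0.67, and the fifth member isoform was at 0.49 (adjusted p = 0.0508). The summed gene stood at 0.60 ± 0.12 (adjusted p = 0.00544). Isoform i10 was not called without control a, and i10, i4 and i3 were not called without the mean-variance trend (adjusted p up to 0.075, 0.0595 and 0.0608 over the alternatives). The other rise was in TRINITY_DN11581_c0_g1_i12, from 312 and 412 to 575 and 601 (0.71 ± 0.14, adjusted p = 0.00475). Of the falls, 3 were isoforms of TRINITY_DN5241_c0_g1, a gene of high level described after its values were seen. Its isoform i13 had 2911 and 3257 in control against 2048 and 1980 in hypergravity (-0.61 ± 0.09, adjusted p = 0.000982), isoform i14 was not called without the mean-variance trend, and the summed gene fell by 0.54 ± 0.08 on the log2 scale (adjusted p = 0.00117). The fourth fall was TRINITY_DN21835_c0_g1_i1, from 71.0 and 98.6 to 43.8 and 40.2 (-0.98 ± 0.24, adjusted p = 0.0143), a call that ended when control b or hypergravity b was left out (adjusted p = 0.121 and 0.0623). The fifth was TRINITY_DN24176_c0_g1_i3, from 280 and 261 to 168 and 134 (-0.85 ± 0.16, adjusted p = 0.00364). Its assembled gene also holds 2 transcripts whose best hit is an ER membrane protein complex subunit, both lower at -0.57, so reads of this gene may not be those of a U-box gene alone. Of the names with at least 5 members, U-box 57-like (10 transcripts, log2 fold changes of -0.15 to 0.32) and U-box 16-like (5 transcripts, -0.63 to -0.16) had 0 called members by limma with the trend or with voom weights, and 0 with an unadjusted p under 0.05.

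Sorted by domain entry, a grouping made after the values were seen, the U-box members differed in how many were called. Over all transcripts 13.5% rose and 11.9% fell. Of 22 with armadillo repeats, 10 rose (45.5%) and 1 fell (4.55%), with a median log2 fold change of 0.33. The 10 that rose came from 6 genes, so they are not independent. Among the other 24 armadillo transcripts with a pooid hit, 1 rose (4.17%) and 3 fell (12.5%), with a median of 0.10. Of 24 U-box members with a protein kinase entry, 1 rose (4.17%) and 4 fell (16.7%), with a median of -0.09. Of 2089 other kinase transcripts, in contrast, 684 rose (32.7%) and 141 fell (6.75%), with a median of 0.21. Of 29 with the U-box entry itself 5 rose (17.2%) and 2 fell (6.9%). The members of a group share genes (12 genes with armadillo entries and 13 with kinase entries), and these differences were not tested.

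No gene had member isoforms called in opposite directions. Since isoforms share reads, this cannot show that they move together. Of 12 SINA and 40 U-box genes with at least 2 member transcripts, 4 and 11 had any member called by limma. None had isoforms called in both directions. All member isoforms were called in 3 such SINA genes and in 5 such U-box genes. Summed over all members, the SINA class held 16403 and 16241 normalized counts in control and 17258 and 17214 in hypergravity. The U-box class held 78450 and 84609 in control and 80935 and 82287 in hypergravity, so its groups overlapped. The SINA sums did not overlap, but they moved in opposite directions inside the class. The 5 SINAT5-like members of TRINITY_DN1441_c1_g1, chosen for this split after their values were seen, went from 2626 and 2331 to 5327 and 4952. The other 41 members went from 13777 and 13910 to 11931 and 12262, so that both hypergravity sums lay below both control sums.

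Levels per length, as normalized counts per kilobase over all 4 libraries, had a median of 212 in SINA and 195 in U-box members. The median was 127 over all tested transcripts and 183 over those with a pooid best hit, which the member rule requires. The highest SINA members were TRINITY_DN1441_c1_g1_i10 (SINAT5-like, 654), TRINITY_DN9383_c0_g1_i7 (SINAT2-like, 646) and TRINITY_DN75027_c0_g1_i2 (SINA-like 4, 620). Of these, the SINAT5-like transcript rose and the SINA-like 4 transcript fell, as given above. The highest U-box members were TRINITY_DN5241_c0_g1_i13 (U-box 33-like, 1424), TRINITY_DN412_c0_g1_i5 (U-box 16-like, 1404) and TRINITY_DN11820_c0_g1_i8 (U-box 5-like, 1286). Of these, TRINITY_DN412_c0_g1_i5 was not called: control libraries at 1012 and 1414 normalized counts overlapped hypergravity libraries at 1170 and 975 (-0.16, adjusted p = 0.476). Without control a it was called lower (-0.40, adjusted p = 0.0424), and without control b its sign turned (0.08).

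The spread between libraries of a group differed between the classes. In the U-box class, control b exceeded control a by at least 1.5-fold in 16 transcripts (9.88% against 3.94% of all transcripts) and the reverse occurred in 0 (2.42% of all). Hypergravity a exceeded hypergravity b by that much in 13 (8.02% against 5.1% of all) and fell below it in 1 (2.01% of all). Both held for 8 U-box transcripts (4.94%, against 1.03% of all transcripts), among them U-box 16-like, 19-like, 21-like, 29-like, 39-like and 4, and 1 of these 8 was called. No SINA transcript differed by 1.5-fold between libraries of a group in either direction. The difference between the classes was not tested. The root marker sum (mostly nicotianamine synthase) was likewise higher in control b than control a and in hypergravity a than hypergravity b. Its part in this pattern was not tested.

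**Figure D4:**
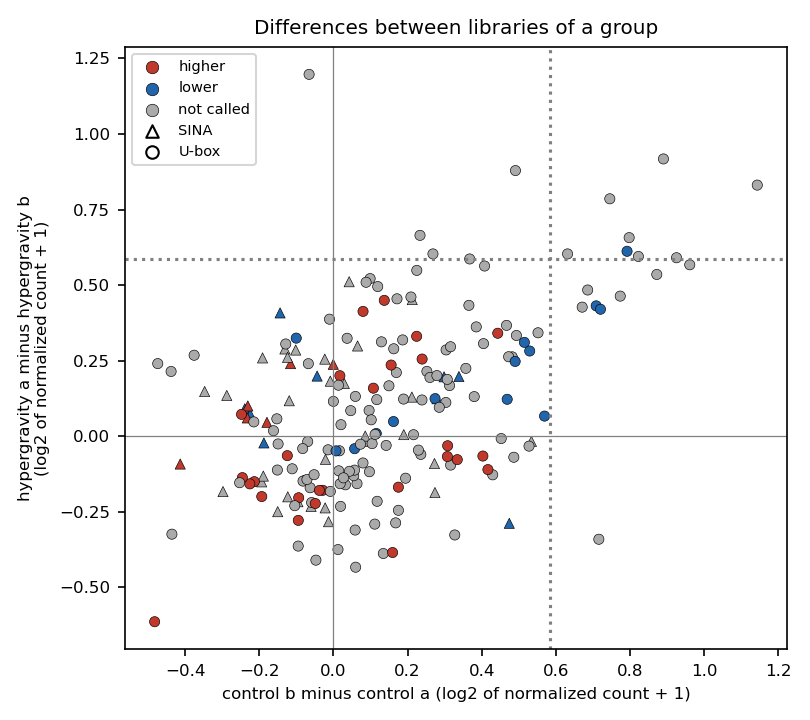
Difference between control b and control a (horizontal) against the difference between hypergravity a and hypergravity b (vertical) for each member, both in log2 of normalized count + 1, with triangles for SINA, circles for U-box, colours for the call and dotted lines at 1.5-fold. The 8 U-box transcripts past both lines lie at upper right, and no SINA transcript lies past either line.

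The rest of the ubiquitin pathway was counted from lists of names with the same species rule, members left out; 60 transcripts stood in more than 1 of the 12 lists. Upstream of the ligases, none of 19 E1 transcripts was called by limma, although 3 had an unadjusted p under 0.05. Of 93 E2 transcripts 3 rose (3.23% against 13.5% of all transcripts) and 20 fell (21.5% against 11.9%), with a median of -0.13. An E2 20-like transcript, TRINITY_DN26160_c0_g2_i2, rose from 22.7 and 32.9 to 77.2 and 62.8 (1.32 ± 0.27), and an E2 34-like one, TRINITY_DN11414_c0_g1_i17, fell from 64.1 and 114 to 44.8 and 25.7 (-1.30 ± 0.34). Among transcripts for ubiquitin itself 5 of 29 rose (17.2%) and 8 fell (27.6%). Lower calls thus outnumbered higher ones for E2 and for ubiquitin. For ubiquitin, however, both shares lay above those of all transcripts.

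The other ligase types are read against 13.5% higher and 11.9% lower of all transcripts. Of 600 other RING transcripts 69 rose (11.5%) and 103 fell (17.2%), with a median of -0.09. EL5-like, named after a rice ligase needed for root development, rose from 105 and 138 to 473 and 413 (TRINITY_DN27072_c0_g2_i2, 1.87 ± 0.17, adjusted p = 3.97e-05). Of 1006 transcripts of SCF ligases, in which an F-box protein binds the target, 62 rose (6.16%) and 198 fell (19.7%), with a median of -0.18. The F-box transcript TRINITY_DN11778_c0_g1_i1 rose from 178 in both control libraries to 1331 and 1478 (2.97 ± 0.11, adjusted p = 5.2e-07), and a PP2-B11-like one, TRINITY_DN14632_c0_g1_i5, fell from 177 and 197 to 38.6 and 34.0 (-2.34 ± 0.20, adjusted p = 3.29e-05). Of 225 BTB adaptors of cullin ligases 19 rose (8.44%) and 46 fell (20.4%). Of 53 HECT ligases 2 rose (3.77%) and 8 fell (15.1%). Of 24 transcripts of the anaphase-promoting complex 0 rose and 3 fell (12.5%, near the share of all transcripts). CHIP, a chaperone-bound ligase that also has a U-box but lies outside the name rule, had 4 of 11 transcripts higher and 0 lower, and the 4 came from 1 gene.

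Downstream, the 26S proteasome had 12 of 110 transcripts higher and 12 lower (10.9% each, against 13.5% and 11.9% of all transcripts). Deubiquitinases, which remove ubiquitin, had 10 of 166 in each direction (6.02% each, below both shares of all transcripts). The related modifiers SUMO and NEDD8 had 2 of 64 higher (3.12%) and 12 lower (18.8%). In the main fit, the U-box class and CHIP were the listed types with more higher than lower calls. All transcripts tested also had more higher than lower calls. Without the mean-variance trend, the U-box class had 13 higher and 10 lower. Its count called lower also depended on the libraries used, as did that over all transcripts (given above). Whether the U-box share differs from that of the other lists was not tested.

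**Figure D5:**
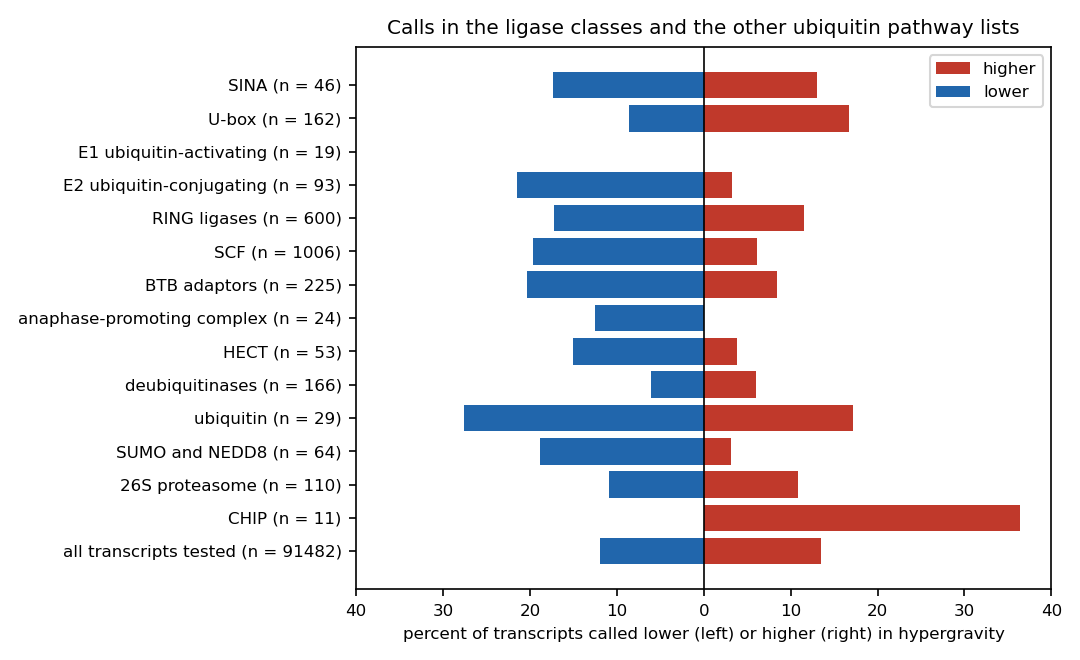
Percent of transcripts called lower (bars to the left) and higher (bars to the right) in hypergravity for the SINA and U-box classes, the 12 other lists of the ubiquitin pathway and all transcripts tested, with the number of transcripts after each name. The U-box bar is longer to the right (16.7% against 8.64%), as is that of all transcripts (13.5% against 11.9%). The E2, SCF and BTB bars are longer to the left.

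Transcripts named after known partners of these ligases were counted the same way. NAC21/22, the names given to NAC1, the SINAT5 target in Arabidopsis, had 2 of 7 transcripts higher and 1 lower. Of 53 autophagy-related transcripts 1 rose and 7 fell. The shares over all transcripts were 13.5% higher and 11.9% lower, and among the other kinase transcripts above 32.7% and 6.75%. FLS2, the flagellin receptor that PUB12 and PUB13 mark in Arabidopsis, had 3 of 9 transcripts higher and 1 lower, and the BAK1 and SERK co-receptors 6 of 29 higher and 4 lower. BIK1 and related PBL kinases had 45 of 162 transcripts higher (27.8%) and 8 lower (4.94%), and the exocyst subunit EXO70B, a target of PUB22 and PUB18 in Arabidopsis, had 7 of 28 higher and 1 lower. S-locus and G-type lectin receptor kinases, among which are partners of armadillo-type U-box ligases, had 55 of 264 higher (20.8%) and 9 lower (3.41%). Neither share called higher exceeded the 32.7% of kinase transcripts outside the U-box class, a set that can hold members of both lists. The single MYC2 transcript was not called, and 1 of 5 transcripts of the receptor EFR rose.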

How the data were processed

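Libraries were stranded and paired-end, made with an mRNA kit per the labels' protocols, and the submitters' processing notes name RSEM. Assembler, aligner and filters were not given in the sources used here. Identifiers have the style of a Trinity assembly. The deposited table gave 1 value per group for 147297 transcripts, called FPKM per the file headers. In 91482 rows, those with over 2 decimals, the deposited signal was found to be the sum, over both libraries of a group, of whole counts divided by size factors (1.0142 and 1.0645 in control, 0.9590 and 0.9712 in hypergravity). Each value split into exactly 1 pair of whole counts (tolerance 1e-09, largest error of a best pair 6.4e-10, smallest error of a second-best pair 4.66e-07). Library a is the one with the smaller size factor; nothing ties it to a replicate number. Pearson's r across transcripts was 0.989 within control, 0.987 within hypergravity and 0.942 to 0.956 across groups. The other 55815 rows were left out of the tests. Transcript lengths, in bases and deposited with the values, gave levels per kilobase.

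Log2(normalized count + 1) was fitted with limma 3.58.1 in R 4.3.3 with eBayes and a mean-variance trend (2 residual and 7.91 prior degrees of freedom, median SE 0.177), with Benjamini-Hochberg adjustment over 91482 transcripts. A minimum mean of 1 removed 0 transcripts. The step was tested on simulated data. Members and lists were chosen with earlier results of these data known. Named per class were called members with the 10 largest changes in each direction (at most 2 per gene), the 3 highest per length, and the called member with the largest change of each name with at least 5 members; per list, the called extremes, of which a part is printed. Alternatives varied the pseudocount, filter, scaling, weighting, unit and libraries. Of 208 best-hit accessions 0 matched a wheat RefSeq protein, so no positions or sequences are given.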

Additional observations from a re-analysis of the deposited data

How the results depend on the processing

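No paired analysis was possible because nothing ties a recovered library to a replicate number. Pseudocounts of 0.5 and 10, no filter and voom weights left all 4 member counts as they were, and a minimum mean of 50, total-count scaling and quantile normalization kept them within 1.5-fold. Summed per gene, the SINA count higher went from 6 transcripts to 1 gene, the U-box count higher from 27 to 17, and the counts over all features to 6726 higher and 5799 lower, since fewer features are tested. Without the mean-variance trend, U-box higher was 13 and all transcripts lower 6622; the cause was not tested. Leaving out 1 library gave SINA lower 4 to 5, SINA higher 4 to 5, U-box lower 7 to 22, U-box higher 22 to 23, all lower 6983 to 10804 and all higher 8905 to 10635. Of 35 named called transcripts 17 kept their call throughout. Of 440 values of named transcripts, 385 kept direction and call, 50 lost the call, 1 gained it and 4 turned sign: TRINITY_DN9383_c0_g1_i7 under quantile normalization (-0.027) and without control b or hypergravity b (-0.117 to 0.120 over the libraries left out), and TRINITY_DN412_c0_g1_i5 without control b (-0.404 to 0.0783 likewise). Under every setting, 7 of 14 called SINA and 16 of 41 called U-box transcripts kept their call. The lowest recovered count was 9 and the median SE of a log2 fold change 0.177, which limit the smallest changes that can be called.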

Other observations

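Further transcripts of these names lay in rows that were not tested, where the authors' deposited table gives 1 FPKM value per group. Of 6 such SINA transcripts with a pooid hit, all 6 had the lower value in hypergravity, with maxima of 4.03 in control and 2.63 in hypergravity. Of 20 such U-box transcripts 13 had the higher value in hypergravity and 7 the lower, and 2 were listed at 0 in control and 2 in hypergravity. The matching shares over all untested rows were not counted, and 1 value per group allows no test of these directions. In the authors' deposited table, isoforms i10 and i12 of the U-box 5-like gene TRINITY_DN12654_c0_g1, whose tested isoforms rose, went from 3.66 to 14.04 and from 0 to 4.29.

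Some 10 tested transcripts carried these names with a best hit outside the pooid grasses, 2 SINA and 8 U-box. A SINAT5-like transcript with a Panicum hit, TRINITY_DN13455_c0_g1_i10, fell (-0.40, adjusted p = 0.0284 by limma). A U-box 33-like transcript with a rice hit, TRINITY_DN5251_c0_g2_i5, rose by 0.64 ± 0.15 on the log2 scale (adjusted p = 0.0127). A U-box 42 transcript with a cotton hit, TRINITY_DN63918_c0_g1_i1, rose by 1.56 ± 0.28 (adjusted p = 0.0025), and whether its source is wheat was not tested.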
